A study of Mus musculus with 10 samples.

Results

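The 9 genes described here are tumour suppressors and growth regulators whose human counterparts are often mutated, deleted or amplified in bladder cancer: Trp53, Mdm2, Cdkn1a, Cdkn2a, Rb1, Tsc1, Arid1a, Kmt2d and Stag2. They were picked by name from the 55536 genes counted in mouse bladder RNA, and all 9 had enough counts to be tested in every comparison. The RNA came from C57BL/6 mice that were wild type (WT, n = 4), OMD-/- (n = 3) or PRELP-/- (n = 3). The knockouts are constitutive, carry β-galactosidase in place of the coding exons of Omd or Prelp, and therefore lack the small leucine-rich proteoglycan osteomodulin or PRELP in every tissue. The genotype entry of the third group spells the gene PRLEP. Ages and sexes are not stated for these libraries, and each library is labelled as bladder tissue of its genotype with no word on pooling, so the p-values below measure the spread between these samples.

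In the urothelium, as in other epithelia, p53 (Trp53) halts the cell cycle or triggers death after damage, largely through target genes such as Cdkn1a, whose product p21 inhibits cyclin-dependent kinases. Mdm2 marks p53 for destruction and is itself a p53 target, which closes a feedback loop, and its relative Mdm4 blocks p53 activity. Rb1 holds E2F transcription factors in check until cyclin-dependent kinases phosphorylate it, and Cdkn2a encodes both p16Ink4a, which inhibits those kinases, and p19Arf, which inhibits Mdm2. Tsc1 restrains mTOR signalling, Arid1a is a subunit of the SWI/SNF chromatin remodeller, Kmt2d methylates histone H3 at enhancers, and Stag2 is a subunit of the cohesin ring.

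Total counts ran from 20391437 to 46269079 per library. Levels are given in counts-per-million (CPM), scaled for library composition by edgeR's trimmed mean of M-values (TMM). The targeted genes matched the labels: Prelp fell to between 46 and 74 counts in the PRELP-/- libraries, against 4848 to 15890 counts in WT. In OMD-/- Prelp had 16374 to 19429 counts, and stood at 782 to 829 CPM against 213 to 316 CPM in WT. Omd was at 0 counts in all 3 OMD-/- libraries, but it reached only 12 counts at most elsewhere and was at 0 in WT replicate 1 as well, so it checks little. All 8 umbrella cell markers were detected, with summed levels of 10130 to 12000 CPM in WT, and so were markers of smooth muscle, fibroblasts, leukocytes and endothelium. Of the 7 basal cell markers, Krt17 was at 0 in every library. In this bulk RNA, fewer cells of a type and less RNA per cell cannot be told apart.

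Some libraries stood apart from others of their group. In PRELP-/- replicate 1, the 2548 genes with more than 8000 exon bases had a median log2 CPM 0.64 below the WT mean, and the 3292 genes with up to 2000 exon bases had a median 0.59 above it. Both medians stayed between -0.09 and 0.11 in each of the other 9 libraries. Reads from Y chromosome genes came to 211, 179, 1.60 and 1.18 CPM in the WT libraries, 17.4, 1.14 and 0.902 CPM in OMD-/- and 98.2, 18.4 and 18.4 CPM in PRELP-/-. The WT group thus split into 2 libraries with many such reads and 2 with few. Cell type markers split WT the same way: summed smooth muscle markers were at 280 and 264 CPM in replicates 1 and 2 and at 1232 and 1076 CPM in replicates 3 and 4, and summed endothelial markers at 392 and 400 CPM against 191 and 175 CPM. Their part in results that rest on this split was not tested. Where a result rests on PRELP-/- replicate 1 or on the WT split, its value is also given without PRELP-/- replicate 1, or among the 7 libraries under 20 CPM (WT replicates 3 and 4, all OMD-/- and PRELP-/- replicates 2 and 3).

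The promoters are shown for the genes of the p53 loop. Trp53 and Mdm2 are the members that passed the edgeR test below in OMD-/- against WT, Trp53 only near its threshold. Cdkn1a and Cdkn2a each start from more than 1 place. Of the 9 genes, 7 had a window from 250 bases before to 50 bases after an annotated start in RefSeq (build GRCm38.p6), with 10 windows between them. Each was searched on both strands for a spaced p53-type pair, CATG and again CATG with 6 bases between, which 234 of 32851 mouse promoter windows hold (0.712%). An E2F-type element, TTT, then 2 bases that are each C or G, then CGC, was searched in the same way, and 744 windows hold 1 or more (2.26%). Capitals mark the match in each sequence, which runs 5′ to 3′ on the strand of the gene. The first start of Cdkn1a, the upstream start of Cdkn2a and 1 of the 2 Arid1a windows held a match. The upstream Cdkn2a exon is the first exon of p19Arf, and the downstream one that of p16Ink4a.
Trp53 (chr11:69580109-69580408, plus strand): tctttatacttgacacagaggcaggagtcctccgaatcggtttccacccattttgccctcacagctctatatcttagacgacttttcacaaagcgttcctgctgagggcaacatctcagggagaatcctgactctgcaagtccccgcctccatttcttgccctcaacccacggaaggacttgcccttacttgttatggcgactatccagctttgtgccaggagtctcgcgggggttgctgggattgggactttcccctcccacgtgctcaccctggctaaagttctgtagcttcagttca
Mdm2 (chr10:117710709-117711008, minus strand): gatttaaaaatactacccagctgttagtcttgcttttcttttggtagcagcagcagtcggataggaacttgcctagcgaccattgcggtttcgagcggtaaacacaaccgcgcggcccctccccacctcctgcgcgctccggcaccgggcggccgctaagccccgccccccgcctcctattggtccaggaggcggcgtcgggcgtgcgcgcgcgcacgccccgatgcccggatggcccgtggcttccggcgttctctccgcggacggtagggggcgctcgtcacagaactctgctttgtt
Cdkn1a, first start (chr17:29090729-29091028, plus strand): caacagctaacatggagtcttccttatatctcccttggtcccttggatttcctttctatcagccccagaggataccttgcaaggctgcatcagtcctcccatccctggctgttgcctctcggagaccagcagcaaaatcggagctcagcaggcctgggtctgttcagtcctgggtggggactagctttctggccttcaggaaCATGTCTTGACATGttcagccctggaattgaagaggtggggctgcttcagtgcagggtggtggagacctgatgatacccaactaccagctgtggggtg
Cdkn1a, second start (chr17:29093519-29093818, plus strand): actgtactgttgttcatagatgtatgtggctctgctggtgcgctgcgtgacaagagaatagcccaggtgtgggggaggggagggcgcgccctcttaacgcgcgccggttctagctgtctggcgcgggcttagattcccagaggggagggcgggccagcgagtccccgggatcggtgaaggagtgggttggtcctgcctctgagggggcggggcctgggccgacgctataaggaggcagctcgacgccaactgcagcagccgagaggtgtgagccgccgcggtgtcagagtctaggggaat
Cdkn2a, upstream start (chr4:89294570-89294869, minus strand): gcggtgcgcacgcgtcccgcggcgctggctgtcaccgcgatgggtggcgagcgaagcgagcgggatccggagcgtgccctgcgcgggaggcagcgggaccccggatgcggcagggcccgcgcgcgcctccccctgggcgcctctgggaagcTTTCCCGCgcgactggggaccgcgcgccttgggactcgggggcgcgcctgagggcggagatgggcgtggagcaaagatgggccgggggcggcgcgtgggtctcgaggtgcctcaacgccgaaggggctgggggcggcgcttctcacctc
Cdkn2a, downstream start (chr4:89282143-89282442, minus strand): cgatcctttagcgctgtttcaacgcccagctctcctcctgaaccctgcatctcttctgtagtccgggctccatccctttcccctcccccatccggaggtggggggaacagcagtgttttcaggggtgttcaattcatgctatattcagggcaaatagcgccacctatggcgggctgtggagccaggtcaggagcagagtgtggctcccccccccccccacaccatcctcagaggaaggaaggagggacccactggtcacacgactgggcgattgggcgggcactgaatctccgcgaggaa

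The matching 14 bases of Cdkn1a begin 48 bases before the first start. Among 23 p53 target genes with a window, members included, Cdkn1a was the 1 that held this pair. The E2F-type match of Cdkn2a begins 99 bases before its upstream start and that of Arid1a 55 bases before one of its starts. Among 16 E2F target genes with a window, 6 held an E2F-type element. A match describes the letters and is not by itself a bound site.

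Per length, Cdkn1a was the most abundant of the 9 transcripts in WT bladder, at 85.9 ± 8.50 transcripts-per-million (TPM, SD, n = 4), and Cdkn2a the least, at 3.24 ± 0.740 TPM. Arid1a (58.7 ± 14.2 TPM), Stag2 (55.4 ± 7.64 TPM) and Trp53 (51.9 ± 6.93 TPM) followed Cdkn1a and overlapped each other in range. Mdm2 (38.2 ± 2.44 TPM) lay below every Trp53 value and overlapped Kmt2d (34.9 ± 11.5 TPM). Rb1 (13.5 ± 1.72 TPM) and Tsc1 (12.8 ± 1.74 TPM) overlapped each other, below Kmt2d and above Cdkn2a. TPM was computed from the counts and the summed exon length of each gene.

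Loss of OMD was accompanied by lower Mdm2 and slightly higher Trp53 mRNA, and the other 7 genes did not pass the test. With edgeR's quasi-likelihood test and Benjamini-Hochberg adjustment over 16647 genes, 2 of 9 members (22.2%) had an adjusted p under 0.05, against 29.4% of all genes (14.3% higher, 15.1% lower). Their median log2 fold change was -0.15, and that of all genes was -0.0002. In PRELP-/- against WT, none of the 9 passed, where 7.29% of 16581 genes did (1.40% higher, 5.89% lower). For PRELP-/- their median was -0.02, against 0.02 for all genes. At an unadjusted p under 0.05 the count was 3 in OMD-/- (41.3% of all genes) and 1, Tsc1, in PRELP-/- (26.7% of all genes). DESeq2 called the same 2 members in OMD-/- and 0 in PRELP-/- (26.8% and 12.6% of the genes it gave an adjusted p), whereas limma-voom with sample weights called 5 and 4 (43.3% and 42.0% of all genes). With all 3 groups in 1 fit no member was called in either comparison (14.7% of all genes for OMD-/-), Mdm2 reaching an adjusted p of 0.0661 in OMD-/-. With Y chromosome CPM as a covariate 4 members were called in OMD-/- (37.9% of all genes). Both comparisons share the WT libraries, so they are not independent of each other.

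**Figure D1:**
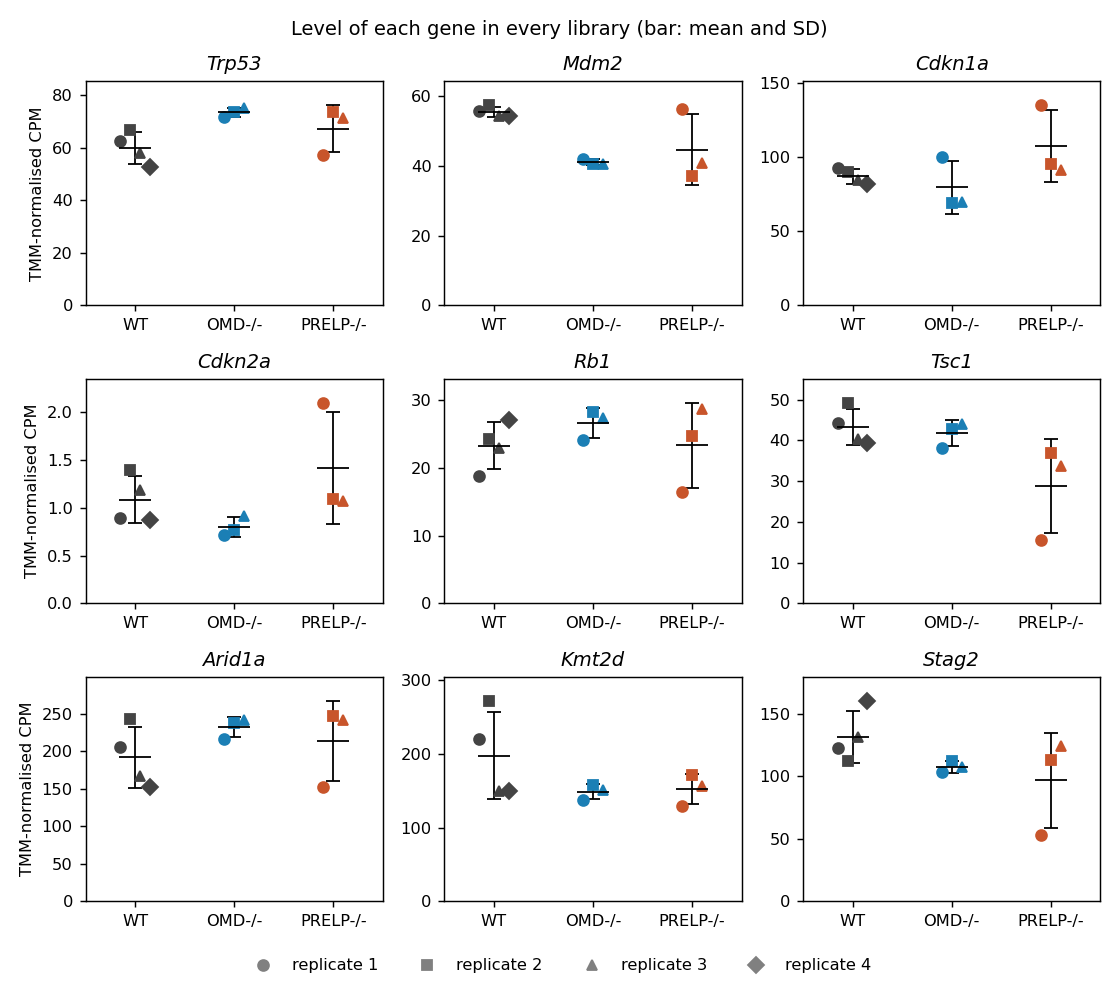
TMM-normalised CPM of the 9 genes (vertical axes, from 0) in the WT, OMD-/- and PRELP-/- libraries, 1 point per library with its shape giving the replicate number, and bars for the mean and SD. Mdm2 lies at 40.5 to 42.1 CPM in OMD-/- and at 54.4 to 57.5 CPM in WT, and PRELP-/- replicate 1 lies apart from replicates 2 and 3 for most genes.

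Mdm2 (chr10:117688875-117710758, minus strand, GRCm38) stood at 55.7, 57.5, 54.4 and 54.4 CPM in WT replicates 1 to 4, at 42.1, 40.5 and 40.7 CPM in OMD-/- and at 56.3, 37.1 and 40.8 CPM in PRELP-/-. Every OMD-/- library lay below every WT library, as did PRELP-/- replicates 2 and 3, while PRELP-/- replicate 1 lay at the WT level. Groups that do not overlap were found for 39.0% of all genes in OMD-/- against WT (20.5% higher, 18.5% lower) and 30.3% in PRELP-/- against WT (14.5% higher, 15.8% lower). The fall in OMD-/- was 0.73-fold of WT (log2 fold change -0.45 ± 0.07 SE, adjusted p = 0.00146, edgeR). In PRELP-/- the log2 fold change was -0.34 ± 0.17 (adjusted p = 0.233), and without replicate 1 it was -0.53 ± 0.08 (adjusted p = 0.00342), a setting in which 22.2% of all genes were called. Among the libraries with few Y chromosome reads the values were -0.43 for OMD-/- (adjusted p = 0.00233) and -0.52 for PRELP-/- (adjusted p = 2.83e-05).

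Trp53 (chr11:69580359-69591873, plus strand) stood at 62.6, 66.6, 57.9 and 52.6 CPM in WT, at 71.8, 73.3 and 75.1 CPM in OMD-/- and at 57.0, 73.6 and 71.1 CPM in PRELP-/-. The OMD-/- libraries were again apart from WT, on the higher side, and so were PRELP-/- replicates 2 and 3. The rise in OMD-/- was 1.21-fold (log2 0.27 ± 0.09, adjusted p = 0.0399, edgeR), with 14.3% of all genes called higher. This call was near the threshold: it was lost without WT replicate 1, 3 or 4 or OMD-/- replicate 2 or 3, where the adjusted p lay between 0.0558 and 0.139. In PRELP-/- the log2 fold change was 0.14 ± 0.15 (adjusted p = 0.577). Among the libraries with few Y chromosome reads Trp53 was called higher in both, by 0.38 in OMD-/- (adjusted p = 0.00568) and by 0.35 in PRELP-/- (adjusted p = 0.000684), where 39.8% and 51.8% of all genes were called.

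A larger change was seen in Mdm4, the other inhibitor of p53 of this family. Its level was 102, 105, 96.0 and 102 CPM in WT, 38.4, 39.0 and 37.4 CPM in OMD-/- and 44.3, 38.6 and 38.5 CPM in PRELP-/-. All 6 knockout libraries lay far below all 4 WT libraries, PRELP-/- replicate 1 included. The log2 fold change was -1.42 ± 0.08 in OMD-/- (adjusted p = 1.03e-06) and -1.35 ± 0.13 in PRELP-/- (adjusted p = 0.000823, edgeR). Of the 16 tested regulators and relatives of p53 without the members, the other gene called was Atr, a kinase upstream of p53, in OMD-/- (log2 -0.30, adjusted p = 0.0488). None was called higher. The p53 relative Trp63, a marker of basal cells, had log2 fold changes of -0.05 in OMD-/- (adjusted p = 0.709) and -0.09 in PRELP-/- (adjusted p = 0.771). Other basal markers differed from it. Of 5 tested in OMD-/-, Trp63 included, 3 were called higher (Krt15, Itga6 and Cd44), with a median of 0.40. In PRELP-/- 0 of 6 were called, with a median of 0.47.

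**Figure D2:**
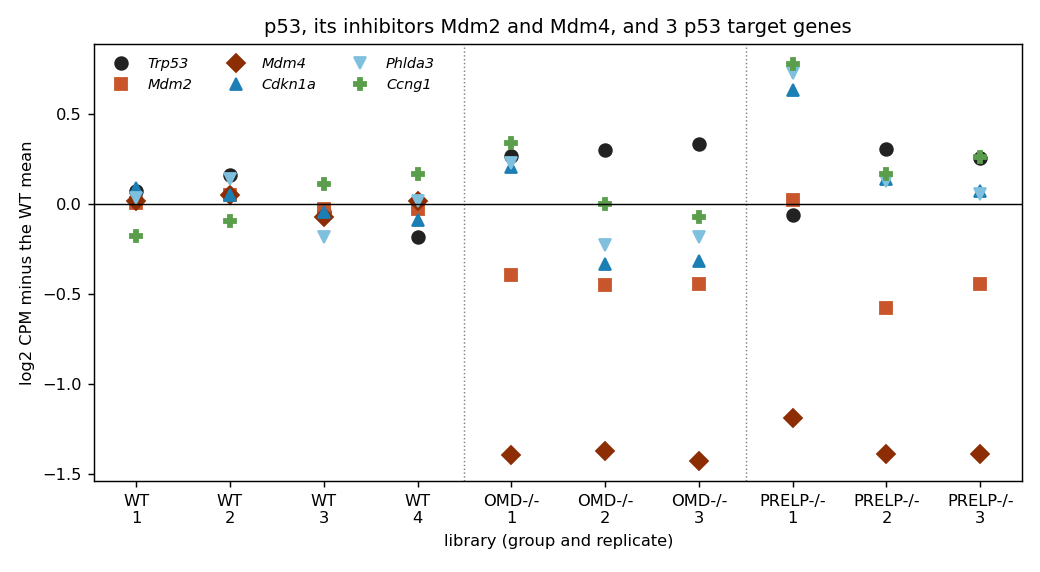
Log2 CPM minus the WT mean (vertical axis) of Trp53, Mdm2, Mdm4 and the p53 target genes Cdkn1a, Phlda3 and Ccng1 in each of the 10 libraries (horizontal axis). Mdm4 lies more than 1 unit below the WT mean in all 6 knockout libraries, and Mdm2 lies below it in 5 of them, PRELP-/- replicate 1 being the exception.

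Cdkn1a (chr17:29090976-29100727, plus strand) stood at 92.4, 90.2, 84.4 and 81.8 CPM in WT, at 100.3, 69.2 and 69.8 CPM in OMD-/- and at 135, 95.8 and 91.5 CPM in PRELP-/-. In each knockout group replicate 1 was the highest library, and both groups overlapped WT. The log2 fold change was -0.15 ± 0.12 in OMD-/- (adjusted p = 0.369) and 0.28 ± 0.17 in PRELP-/- (adjusted p = 0.317). Without OMD-/- replicate 1, Cdkn1a was called lower in OMD-/- (log2 -0.33, adjusted p = 0.0172). The gene nearest to it in pattern over the 10 libraries, of 14474 searched, was Phlda3, a p53 target that restrains Akt, with a root mean square difference of 0.0826 in centred log2 CPM. Phlda3 itself had log2 fold changes of -0.08 (adjusted p = 0.652) and 0.31 (adjusted p = 0.327).

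With all libraries, the p53 target genes moved in both directions. Of 30 tested without the members, 3 were higher and 9 lower in OMD-/- (12 of 30 called, against 29.4% of all genes), with a median log2 fold change of -0.03. The 3 higher were Zmat3 (log2 0.36, adjusted p = 0.0241), an RNA-binding p53 effector, Sesn2 (0.35, adjusted p = 0.0285), a stress-induced brake on mTOR, and Eda2r (0.79, adjusted p = 0.0195), a death receptor of the TNF family. Of the 9 lower, those with the smallest adjusted p were Pidd1, part of a caspase-activating complex (-1.18, adjusted p = 0.00101), and Plk3, a stress-responsive kinase (-0.75, adjusted p = 0.00336). The rest of the lower genes were Bbc3, Bax, Pmaip1, Btg2, Aen, Polk and Ddb2. In PRELP-/- 1 was higher and 2 lower of 30: Zmat3 (0.62, adjusted p = 0.0446), Pidd1 (-1.09, adjusted p = 0.0202) and Ddb2, a sensor of damaged DNA (-0.96, adjusted p = 0.0438). Zmat3, Sesn2, Eda2r and the lower genes listed after Plk3 were named after their values were seen. Ddb2 shares 23.8% of its exon bases with the more abundant Acp2 on the other strand, so its level is uncertain. Ccng1, a cyclin induced by p53, was not called in either knockout (0.07 and 0.40, adjusted p = 0.712 and 0.215). Without OMD-/- replicate 1 the list had 0 higher and 10 lower in OMD-/- (33.3%), where 4405 of 17298 genes were called.

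Cdkn2a (chr4:89274471-89294653, minus strand) was near the limit of what these libraries measure, with 20 to 45 counts per WT library. Its level was 0.895, 1.395, 1.18 and 0.877 CPM in WT, 0.716, 0.768 and 0.917 CPM in OMD-/- and 2.10, 1.09 and 1.07 CPM in PRELP-/-. Both knockouts overlapped WT, and PRELP-/- replicate 1 was the highest library. The log2 fold change was -0.45 ± 0.33 in OMD-/- (adjusted p = 0.337) and 0.36 ± 0.35 in PRELP-/- (adjusted p = 0.547). Without PRELP-/- replicate 1 the second value was -0.01. A count per gene does not separate p16Ink4a from p19Arf, whose starts are shown above.

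Rb1 (chr14:73183673-73325822, minus strand) stood at 18.8, 24.3, 22.9 and 27.0 CPM in WT, at 24.1, 28.3 and 27.3 CPM in OMD-/- and at 16.5, 24.7 and 28.7 CPM in PRELP-/-. No group was apart from another. Its log2 fold change was 0.17 ± 0.13 in OMD-/- (adjusted p = 0.350) and -0.02 ± 0.21 in PRELP-/- (adjusted p = 0.959). Rb1 shares 8.11% of its exon bases with Rcbtb2 and 6.78% with Lpar6 on the other strand, and since the strand setting of the counting is not given in the sources used here, its level is uncertain. Its relatives Rbl1 and Rbl2 and its target E2f1 were not called in either knockout, with log2 fold changes from -0.10 to 0.20 in OMD-/- and from -0.30 to 0.33 in PRELP-/-.

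Among other genes of the RB pathway the kinase Cdk2 and the cyclin Ccnd1 moved in opposite directions in OMD-/-. Cdk2, which phosphorylates Rb1 late in G1, fell from 15.5 ± 1.16 CPM in WT to 8.07 ± 0.383 CPM in OMD-/- and 9.49 ± 0.632 CPM in PRELP-/-, and neither knockout overlapped WT. Its log2 fold changes were -0.97 (adjusted p = 0.000264) and -0.74 (adjusted p = 0.0196). Ccnd1, the cyclin that starts this phosphorylation, was higher in OMD-/- (0.44, adjusted p = 0.00161) and not called in PRELP-/- (0.16, adjusted p = 0.471), but shares 23.4% of its exon bases with LTO1. In all, 3 of 20 RB pathway genes were higher and 4 lower in OMD-/- (35.0%), and 0 higher and 1 lower of 19 in PRELP-/-. Among 5 tested inhibitors of cyclin-dependent kinases other than the members, Cdkn1b (p27) was lower in OMD-/- (-0.39, adjusted p = 0.00707) and none was called in PRELP-/-, where 1 had an unadjusted p under 0.05. Cdkn2b, the neighbour of Cdkn2a, was not called (-0.11 and 0.15, adjusted p = 0.430 and 0.623).

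Of 19 tested genes that E2F factors switch on for DNA replication and division, 11 were higher in OMD-/- bladder (Mcm2, Mcm3, Mcm4, Mcm5, Mcm6, Rrm1, Mki67, Top2a, Ccna2, Cdk1 and Aurkb) and 1, the thymidine kinase Tk1, lower. This is 63.2% called, against 29.4% of all genes, with a median log2 fold change of 0.53. Among the libraries with few Y chromosome reads 8 were higher and 1 lower (47.4%), where 39.8% of all genes were called. The helicase subunit Mcm3 stood at 12.3, 11.4, 10.1 and 7.63 CPM in WT, 20.2, 22.4 and 20.4 CPM in OMD-/- and 12.3, 15.1 and 16.7 CPM in PRELP-/-. Every OMD-/- library lay above every WT and PRELP-/- library for Mcm3 (log2 0.995 ± 0.15, adjusted p = 0.000920), and Mcm6 rose by 0.66 (adjusted p = 0.00125). In PRELP-/- the median was 0.29 and none of 19 was called. Of these 19, 5 had an unadjusted p under 0.05, against 26.7% of all genes. Without replicate 1 there were 5 higher and 1 lower (31.6%, against 22.2% of all genes). Among the libraries with few Y chromosome reads 7 of 18 were higher and 1 lower in PRELP-/- (44.4%, against 51.8% of all genes). Markers of several cell types moved with this list. In OMD-/- 6 of 8 leukocyte markers were called higher, and none was at 0 throughout. Their summed levels were 681 to 1220 CPM against 392 to 446 CPM in WT. Summed fibroblast markers were 17690 to 21360 CPM against 8068 to 9287 CPM in WT, with 4 of 7 called higher and 1 below 0 in log2 fold change. Urothelial markers were higher too. Summed umbrella cell markers were 12730 to 17300 CPM against 10130 to 12000 CPM in WT, with 3 of 8 called higher. Summed basal markers were 3476 to 4704 CPM against 2564 to 3317 CPM, with 3 of 5 tested called higher. Summed endothelial markers were 468 to 547 CPM against 175 to 400 CPM, with 0 of 6 called. Smooth muscle markers had 5 of 7 below 0 in log2 fold change and 0 called, at 347 to 780 CPM against 264 to 1232 CPM in WT. In PRELP-/- smooth muscle markers summed to 196 to 224 CPM, with 7 of 7 below 0 and 0 called. Summed fibroblast markers in PRELP-/- replicates 1 to 3 were 9588, 19570 and 19200 CPM, with 2 of 7 called higher and 2 below 0. The part of these markers in the changes of Mdm2, Trp53, Mdm4 and the E2F list was not tested.

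**Figure D3:**
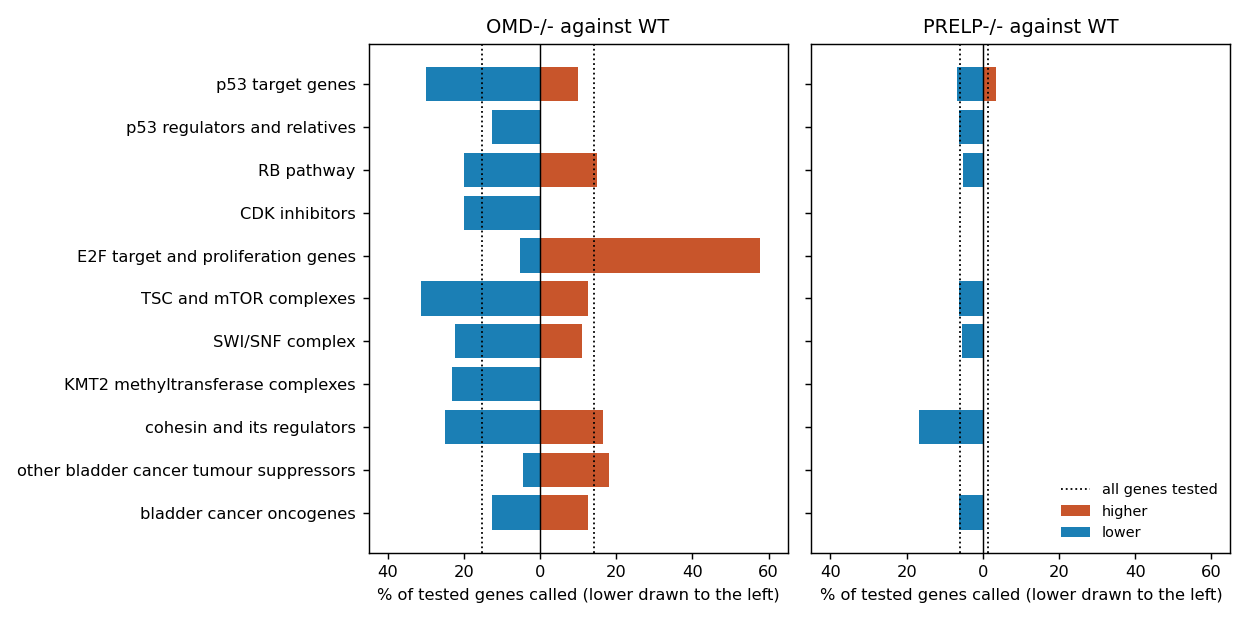
Percent of the tested genes of each partner list (vertical axis, without the 9 members) that were called higher (drawn to the right) or lower (drawn to the left) in OMD-/- (left panel) and PRELP-/- (right panel) against WT, with dotted lines at the share of all genes called in that direction. E2F target and proliferation genes have 11 of 19 called higher in OMD-/-, against 14.3% of all genes.

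Tsc1 (chr2:28641228-28691167, plus strand) stood at 44.3, 49.2, 40.4 and 39.3 CPM in WT, at 38.1, 42.9 and 44.1 CPM in OMD-/- and at 15.7, 37.0 and 33.8 CPM in PRELP-/-. The PRELP-/- libraries lay below all WT and all OMD-/- libraries, replicate 1 by far the lowest, while OMD-/- and WT overlapped. Tsc1 had the smallest adjusted p of the 9 in PRELP-/- but did not pass (log2 -0.61 ± 0.27, adjusted p = 0.186, edgeR). Without PRELP-/- replicate 1 the log2 fold change was -0.30 ± 0.11 (adjusted p = 0.0748). Among the libraries with few Y chromosome reads Tsc1 was called lower in PRELP-/- (-0.21, adjusted p = 0.0424, edgeR), where 51.8% of all genes were called. Limma-voom also called it lower in PRELP-/- (-0.28, adjusted p = 0.0463), with 42.0% of all genes. In OMD-/- the log2 fold change of Tsc1 was -0.07 ± 0.10 (adjusted p = 0.630, edgeR).

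Of 16 other genes of the TSC and mTOR complexes, 2 were higher and 5 lower in OMD-/- (43.8%), and 0 higher and 1 lower in PRELP-/- (6.25%). Tsc2, the partner of Tsc1 that carries its GTPase-activating activity, was higher in OMD-/- (0.43, adjusted p = 0.00870) and not called in PRELP-/- (0.33, adjusted p = 0.292). Tsc2 shares 7.20% of its exon bases with Pkd1. Rps6kb1, the S6 kinase that mTOR activates, was lower in both, from 57.3 ± 3.44 CPM in WT to 38.5 ± 3.44 CPM in OMD-/- and 39.6 ± 3.00 CPM in PRELP-/- (log2 -0.59 and -0.56, adjusted p = 0.00119 and 0.0329). For this gene too the knockouts and WT did not overlap.

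Arid1a (chr4:133679008-133756769, minus strand) stood at 205, 243, 167 and 153 CPM in WT, at 217, 238 and 242 CPM in OMD-/- and at 153, 247 and 242 CPM in PRELP-/-. WT replicate 2 reached the highest knockout levels, replicate 1 lay just below OMD-/-, and replicates 3 and 4 lay near PRELP-/- replicate 1. It differed from WT by 0.26 ± 0.14 on the log2 scale in OMD-/- (adjusted p = 0.191) and 0.13 ± 0.22 in PRELP-/- (adjusted p = 0.742). Among the libraries with few Y chromosome reads, which leave WT replicates 3 and 4, it was called higher in both knockouts, by up to 0.58 in PRELP-/- (adjusted p = 1.05e-06). The pattern of Arid1a was near that of Crebbp, a histone acetyltransferase also mutated in bladder cancer (root mean square difference 0.050).

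Kmt2d (chr15:98831669-98871204, minus strand) stood at 219, 271, 149.7 and 149.0 CPM in WT, at 138, 158 and 151 CPM in OMD-/- and at 129.6, 171 and 156 CPM in PRELP-/-. The same 2 WT libraries were high, and WT replicates 3 and 4 lay within the range of the knockouts. The log2 fold change was -0.43 ± 0.20 in OMD-/- (adjusted p = 0.132) and -0.40 ± 0.24 in PRELP-/- (adjusted p = 0.304), and among libraries with few Y chromosome reads, which leave WT replicates 3 and 4, these were -0.03 (adjusted p = 0.779) and 0.09 (adjusted p = 0.242). Kmt2c, its closest relative, showed the same split of WT, at 202, 230, 139 and 132 CPM, and was not called (-0.26 and -0.55, adjusted p = 0.322 and 0.365).

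Stag2 (chrX:42149317-42277185, plus strand) stood at 122.4, 112.0, 131 and 160.0 CPM in WT, at 103, 112 and 107 CPM in OMD-/- and at 53.4, 112.5 and 124 CPM in PRELP-/-. The OMD-/- libraries lay at or just below the lowest WT library, and PRELP-/- replicate 1 was the lowest of the 10 libraries. Stag2 differed from WT by -0.31 ± 0.12 on the log2 scale in OMD-/- (adjusted p = 0.0710) and -0.47 ± 0.27 in PRELP-/- (adjusted p = 0.302), the latter -0.17 without replicate 1. Among the libraries with few Y chromosome reads Stag2 was called lower in both, by -0.47 in OMD-/- (adjusted p = 0.00400) and -0.34 in PRELP-/- (adjusted p = 0.00974), where 39.8% and 51.8% of all genes were called. Stag1, which takes the place of Stag2 in the other form of cohesin, was not called (0.11 and -0.10, adjusted p = 0.366 and 0.810).

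Partners of these chromatin genes included some that were lower in both knockouts. In OMD-/- 2 of 18 SWI/SNF genes were higher and 4 lower (33.3%), 3 of 13 genes of the KMT2 complexes were lower and none higher (23.1%), and 2 of 12 cohesin genes were higher and 3 lower (41.7%). In PRELP-/- the counts were 1 lower for SWI/SNF, 2 lower for cohesin and none for KMT2, where 3 had an unadjusted p under 0.05. Among the libraries with few Y chromosome reads 10 SWI/SNF genes were higher and 3 lower in OMD-/- (72.2%, against 39.8% of all genes). In PRELP-/- 10 were higher and 4 lower (77.8%, against 51.8% of all genes). KMT2 genes there had 3 higher and 2 lower in OMD-/- (38.5%), and 6 higher and 3 lower in PRELP-/- (69.2%). Cohesin genes had 3 and 3 (50.0%), and 4 and 3 (58.3%). Esco1, an acetyltransferase that acts on cohesin, was lower in all knockout libraries, at 30.8 ± 4.30 CPM in WT, 13.5 ± 1.83 CPM in OMD-/- and 11.9 ± 3.04 CPM in PRELP-/- (log2 -1.21 and -1.40, adjusted p = 0.000228 and 0.00651). Mau2, part of the cohesin loader, was lower by -0.69 and -0.77 on the log2 scale (adjusted p = 0.000164 and 0.0135). Brd9, a subunit of one SWI/SNF form, changed by -0.76 and -0.88 (adjusted p = 0.00130 and 0.0176). In OMD-/- Ss18 (-0.47, adjusted p = 0.000912), a SWI/SNF subunit, Kmt2b (-0.53, adjusted p = 0.00652), a methyltransferase related to Kmt2d, and Paxip1 (-0.41, adjusted p = 0.0114), a subunit of the Kmt2d complex, were lower too. Arid1b, the alternative to Arid1a, was not called (0.08 and -0.16, adjusted p = 0.636 and 0.775), nor was Kdm6a, the demethylase partner of Kmt2d (0.12 and -0.22, adjusted p = 0.649 and 0.725). Kdm6a, on the X chromosome, was split in WT, at 39.0 and 40.2 CPM in replicates 1 and 2 and 58.7 and 63.2 CPM in replicates 3 and 4. The OMD-/- libraries lay between these pairs, at 54.3, 54.8 and 56.8 CPM, as did PRELP-/- replicates 2 and 3.

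**Figure D4:**
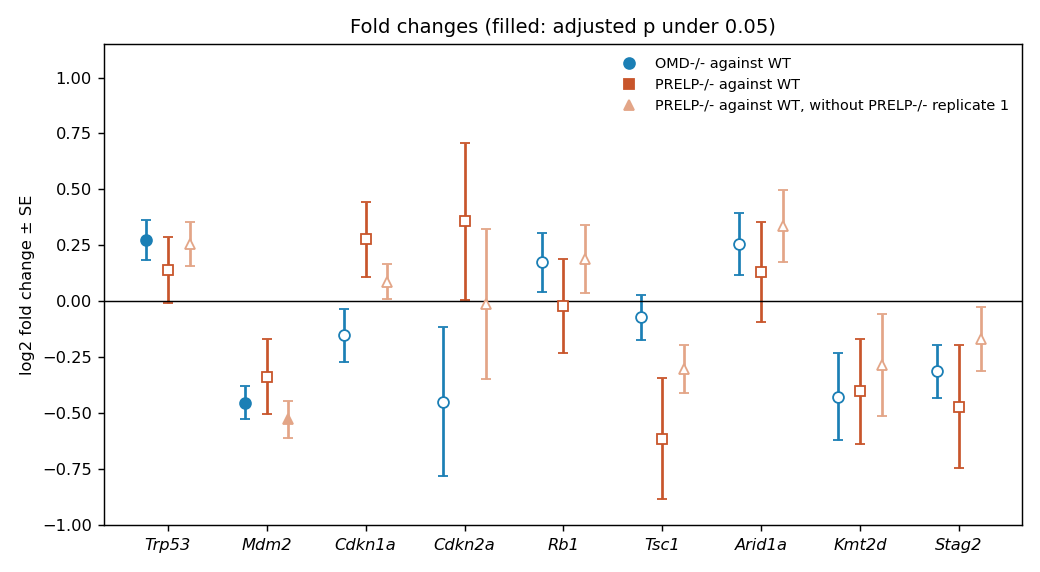
Log2 fold change with its SE (vertical axis) of each gene in OMD-/- against WT, PRELP-/- against WT and PRELP-/- against WT without PRELP-/- replicate 1. Filled symbols mark an adjusted p under 0.05, which holds for Trp53 and Mdm2 in OMD-/- and for Mdm2 in PRELP-/- without replicate 1.

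Of 22 other bladder cancer tumour suppressors, 4 were higher, Tsc2 again among them, and 1 lower in OMD-/- (22.7%). The largest rise was in the hedgehog receptor Ptch1 (0.67, adjusted p = 0.0140). None was called in PRELP-/-, where 5 had an unadjusted p under 0.05, against 26.7% of all genes. Among the libraries with few Y chromosome reads 15 were higher and 2 lower in PRELP-/- (77.3%, against 51.8% of all genes). In OMD-/- 8 were higher and 0 lower in these libraries (36.4%, against 39.8% of all genes). Of 16 bladder cancer oncogenes, 2 were higher, Ccnd1 again among them, and 2 lower in OMD-/- (25.0%), and 1 was lower in PRELP-/- (6.25%). Fgfr3, the receptor most often activated in papillary tumours, stood at 131, 134, 117 and 113.5 CPM in WT, at 80.4, 76.4 and 76.5 CPM in OMD-/- and at 61.4, 82.2 and 75.3 CPM in PRELP-/-. Neither knockout overlapped WT (log2 -0.69 and -0.79, adjusted p = 0.000198 and 0.0162).

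The low or high values of PRELP-/- replicate 1 went with gene length in the medians over all genes, and only in part among the 9 members. Cdkn2a, the shortest of the 9 at 1172 exon bases, was at 0.92 above the WT mean in log2 CPM in this library, and Cdkn1a, at 3553 bases, was at 0.63 above it. Trp53 (4045 bases), Mdm2 (5083 bases) and Rb1 (6015 bases) were at -0.06, 0.02 and -0.49. Stag2 (8273 bases) and Tsc1 (11833 bases) were at -1.29 and -1.46, while Arid1a (11476 bases) and Kmt2d (19931 bases) were at -0.30 and -0.56. Over all genes tested in PRELP-/- against WT, the median log2 fold change ran from 0.33 at up to 1000 exon bases to -0.27 above 16000. In OMD-/- against WT the medians of the same length classes lay between -0.05 and 0.04. The part of length in the PRELP-/- values of the members was not tested.

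**Figure D5:**
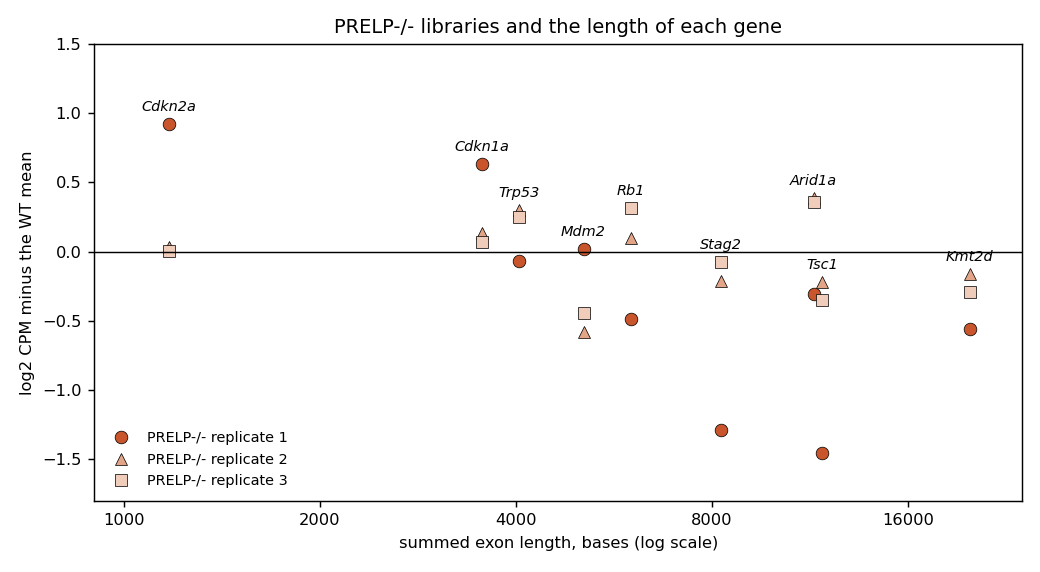
Log2 CPM minus the WT mean (vertical axis) of the 9 genes in the 3 PRELP-/- libraries against summed exon length in bases (horizontal axis, log scale). Replicate 1 runs from 0.92 for Cdkn2a, the shortest gene, to -1.46 for Tsc1, and lies apart from replicates 2 and 3.

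In the direct comparison of PRELP-/- with OMD-/-, none of the 9 genes was called and none had an unadjusted p under 0.05, as 4.51% of all genes did (adjusted p between 0.690 and 0.907, edgeR). Of 15805 genes, 1 was called, Prelp itself (0.00633%). With replicate number as a block the count over all genes was 43 (0.272%), and still none of the members was among them. DESeq2 called no member (0.426% of the genes it gave an adjusted p), and limma-voom with sample weights called 1, Cdkn1a (6.39% of all genes). Cdkn2a was higher in every PRELP-/- than in every OMD-/- library (log2 0.82 ± 0.37) and Tsc1 lower (-0.53 ± 0.31). Groups that do not overlap occurred for 14.8% of all genes in this comparison (6.10% higher, 8.75% lower). The median of the 9 was -0.11, and that of all genes was -0.002. A p that misses the threshold does not show that the knockouts are alike: for Mdm2 the log2 difference was 0.13 ± 0.19.

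The genes nearest to each member in pattern, measured as the root mean square difference of centred log2 CPM over 10 libraries, were Med15 for Trp53 (0.0426), Tmem238l for Mdm2 (0.0480), Nr3c1 for Rb1 (0.0712), Cep164 for Tsc1 (0.0774), Helz for Arid1a (0.0451), Papln for Kmt2d (0.116), Chm for Stag2 (0.0733) and Duoxa1 for Cdkn2a (0.188). The likeness was closest for Trp53 and least close for Cdkn2a, the gene with the fewest counts. Smoc1 and Exoc7 came next for Trp53, and Sike1 and B3galnt2 for Mdm2. Tmem8b and Irak1bp1 followed for Rb1, Hivep1 and Kif3b for Tsc1, and Crebbp and Zhx2 for Arid1a. For Kmt2d these were Prrx1 and Zbtb34, for Stag2 Etaa1 and Pkn2, for Cdkn2a Adprm and Prrg2, and for Cdkn1a Hes1 and Nipal2. The median difference of all genes from Trp53 was 0.341, and from Tsc1, whose own level varied most, 0.533.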

How the data were processed

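Bladder RNA of 10 libraries was made into poly(A)-selected, strand-specific libraries. The authors deposited whole-number read counts per gene for each library, with no normalization. Per the file headers the reads were aligned with HISAT2, whereas the submitters' processing notes name STAR 2.5.2b, featureCounts, DESeq2, bcl2fastq and the builds GRCm38 and hg38 with no role. The strand setting and the use of molecular identifiers are not given in the sources used here. The study's text speaks of isolated bladder epithelia with other sizes for the WT and OMD-/- groups, and the labels of homogenised bladder tissue. Deposited DESeq2 tables hold the fold changes and p-values of the authors' own comparisons and were not used. Gene symbols, exon lengths and coordinates were those of GENCODE vM21 (GRCm38).

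Each pair of groups was fitted alone in edgeR 4.0.16 (R 4.3.3) with TMM scaling, its filter on low counts and the robust quasi-likelihood test, two-sided. P-values were adjusted by Benjamini-Hochberg over all genes of that fit, with a threshold of 0.05. The script was tested on simulated data. Log2 CPM used a prior count of 2. Alternatives used RLE factors, DESeq2 1.42.0, limma 3.58.1 (voom with sample weights), other filters, all 3 groups in 1 fit, a replicate block, Y chromosome CPM as a covariate and leaving out each library. The restriction to libraries under 20 CPM on Y chromosome genes was added after seeing the data. Depth of 20391437 to 46269079 counts bounds the precision for Cdkn2a (15 to 45 counts per library).

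Same-numbered PRELP-/- and OMD-/- libraries deviated together from their group means (r = 0.305, 0.188 and 0.151 across 16647 genes, which are not independent replicates), so the blocked count is given for that comparison. Some differently numbered libraries correlated as much, PRELP-/- replicate 3 with OMD-/- replicate 2 (r = 0.201) and PRELP-/- replicate 2 with OMD-/- replicate 3 (r = 0.163), so the pairing is a hint from the data. Same-numbered WT and OMD-/- libraries did not deviate together (0.042, -0.048 and 0.027). For WT and PRELP-/- the values were -0.069, 0.142 and -0.104, of which that of replicate 2 was near the lowest of the PRELP-/- and OMD-/- pairs. Nothing in the labels states a shared litter or day.

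The members and gene lists were chosen with earlier results of these data known. Named were all 9 members, the 2 genes with the smallest adjusted p among those that passed in each list and knockout, 13 partners fixed by name, the 3 genes nearest in pattern to each member with a mean of at least 1 CPM, and Omd and Prelp. Genes of lists with 5 or fewer calls, the other p53 targets called in OMD-/-, Tk1 and the other E2F targets were named after their values were seen.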

Additional observations from a re-analysis of the deposited data

Results flagged for a closer look

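On the log2 CPM scale Cdkn2a lay below the WT mean in every OMD-/- library and above it in every PRELP-/- library, but in PRELP-/- replicate 3 by only 0.0028, and in CPM that library (1.07) lay just under the WT mean (1.09). Its PRELP-/- minus OMD-/- log2 fold change was 0.82, which did not pass edgeR's quasi-likelihood test (adjusted p = 0.690), and the counts behind it were 15 to 38 per knockout library. The opposite directions against WT were not tested as such.

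Rbl1 was at 25.4 CPM in WT replicate 1, far from 22.3, 22.1 and 21.8 CPM in the other WT libraries. Tk1 was at 6.80 CPM in WT replicate 2, against 5.49, 5.61 and 5.48 CPM in the others. A gap of this kind, relative to the range of the group, is expected by chance in about 1 of 20 groups.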

How the results depend on the processing

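Of 16 alternatives, Mdm2 in OMD-/- against WT kept its direction in all and its call in 15, with adjusted p from 1.60e-05 to 0.0661, and Trp53 kept its direction in all and its call in 9 (0.00490 to 0.173). Members called in OMD-/- were 5 with limma-voom, 0 with all 3 groups in 1 fit, 4 with the Y chromosome covariate, 4 in the libraries with few Y chromosome reads, and 1 to 4 with 1 library left out. Those in PRELP-/- were 4 with limma-voom, 5 in libraries with few Y chromosome reads, and 0 to 1 with 1 library left out, the 1 being Mdm2 without PRELP-/- replicate 1. In PRELP-/- against OMD-/- limma-voom called 1. These settings also moved the counts over all genes.

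Over all genes, OMD-/- against WT gave 4899 calls, 7212 with limma-voom, 6711 in libraries with few Y chromosome reads, 6317 with the Y chromosome covariate, 2485 with all 3 groups in 1 fit and 2951 to 4850 with 1 library left out. PRELP-/- against WT gave 1209, of which 19.2% were higher. It gave 2542 with DESeq2 (36.5% higher), 6963 with limma-voom (48.7%), 2485 with all 3 groups (39.3%), 8584 in libraries with few Y chromosome reads (49.4%) and 475 to 3807 with 1 library left out (48.2% higher without PRELP-/- replicate 1). PRELP-/- against OMD-/- gave 1, then 87 with DESeq2, 1010 with limma-voom, 5 without a filter, 3 with all 3 groups, 5 with the covariate and 1 to 36 with 1 library left out. The cause of these differences was not tested.

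With a replicate block, 115 genes were called in PRELP-/- against WT, and 43 in PRELP-/- against OMD-/-. In OMD-/- against WT the block gave Kmt2d and Mdm2, and Trp53 was lost (adjusted p = 0.173). Mdm4 in PRELP-/- had an adjusted p of 0.0514, with its log2 fold change still at -1.35. The WT libraries share only a number with the others.

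In the libraries with few Y chromosome reads the PRELP-/- log2 fold change turned to 0.39 for Arid1b, 0.17 for Kmt2c, 0.18 for Rbl2, 0.19 for Stag1 and 0.17 for Trp63. Over single genes and alternatives, 1900 values kept their side of the threshold, 72 gained a call and 93 lost one. The 5 just given changed sign and were called. Values called in neither setting could change sign within the 1900. Without PRELP-/- replicate 1, Cdkn2a in PRELP-/- went from 0.36 to -0.01. In the libraries with few Y chromosome reads, Kmt2d in PRELP-/- went from -0.40 to 0.09. Depth limits Cdkn2a most.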
